A study of Homo sapiens with 12 samples.

Results

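The 44 collagen genes were followed in LM2 cells, a human breast cancer line derived from MDA-MB-231 by selection for spread to the lung. They were taken as every symbol made of COL, a number, A and a second number, which picks out the genes for collagen chains among the 24556 distinct symbols of the deposited table. COL11A2 filled 7 rows, of which 6 held only zeros, and its highest row was used. The cells had been transduced with scramble shRNA or EZH2 shRNA, or transfected with scramble siRNA or ZRANB1 siRNA, with 3 RNA-seq libraries in each of the 4 groups. All groups were grown in DMEM with serum, and no group was left without an introduced RNA. EZH2 shRNA and ZRANB1 siRNA were each set against the scramble control delivered the same way. EZH2 is the methyltransferase of a Polycomb repressive complex that places a silencing mark on histones, and ZRANB1 is an enzyme that removes ubiquitin chains from other proteins.

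Collagens are secreted or membrane proteins in which 3 chains wind into a helix. Fibrillar collagens build the load-bearing fibres of connective tissue, and type IV collagens build the sheet of the basement membrane under epithelia and around vessels. The other types link these structures, coat fibrils, form beaded or anchoring filaments or sit in the cell membrane. Most fibrillar collagen in a breast tumour is made by fibroblasts, while carcinoma cells themselves make a smaller and different set.

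Values are FPKM, a fragment count divided by the length of the transcript and the size of the library, which lets levels of different genes be compared per length. The depth behind them is unknown. The labels do not state whether the 3 libraries in each group are separate cultures; p-values therefore measure only the spread between these libraries, which may be technical. A gene was called where limma's Benjamini-Hochberg adjusted p on log2(FPKM + 1) was below 0.05. The test covered 11929 genes averaging 1 FPKM or more over the 12 libraries, 18 of them collagens. The other 26 collagens were too low for this test, and counts over the 18 do not describe all members. Adjusted p-values given for some of the 26 come from a fit with no filter, for which no share over all genes is given.

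EZH2 mRNA was 34.2, 35.6 and 36.3 FPKM with scramble shRNA and 16.1, 16.1 and 17.3 FPKM with EZH2 shRNA, 46.6% of the control (log2 fold change -1.06, limma adjusted p = 1.34e-05). ZRANB1 mRNA was 10.5, 11.5 and 12.1 FPKM with scramble siRNA and 9.05, 9.49 and 11.5 FPKM in the libraries labelled ZRANB1 siRNA, and those groups overlapped (log2 fold change -0.17, 95% interval -0.42 to 0.076, limma adjusted p = 0.349). ZRANB1 siRNA libraries also held less EZH2 mRNA, at 30.4 ± 2.08 against 48.6 ± 2.097 FPKM (SD, n = 3; limma adjusted p = 5.43e-05). Of 3 genes high in MDA-MB-231 derivatives, the filament gene VIM had group means from 2573 to 2836 FPKM and was called in no comparison. CD44 was 264.5, 261, 118 and 206 FPKM in the scramble shRNA and EZH2 shRNA cells and then the scramble siRNA and ZRANB1 siRNA cells, called between the scramble groups (log2 fold change -1.16) and with ZRANB1 siRNA (0.80). EGFR was 19.7, 31.3, 29.3 and 31.3 FPKM, called with EZH2 shRNA (0.64) and between the scramble groups (0.55). The 8 luminal breast markers summed to 439.5 to 633 FPKM, most of it in the keratins KRT8 and KRT18, and ESR1, PGR and CDH1 stayed below 0.1 FPKM. All 4 tested luminal markers were called between the scramble groups, where 50.6% of all genes tested were called. EPCAM (1.03), KRT8 (0.50) and KRT18 (0.38) were higher with siRNA and GATA3 (-0.72) lower. GATA3 was also lower with EZH2 shRNA (-0.40). Of 8 fibroblast markers, 4 to 6 had a group mean below 0.1 FPKM, and the 8 summed to 1.97 FPKM with scramble shRNA, 2.66 with EZH2 shRNA, 2.24 with scramble siRNA and 2.43 with ZRANB1 siRNA. The 5 endothelial markers summed to 0.822 to 2.08 FPKM, and the blood cell list summed to 35.4 to 43.0 FPKM, nearly all of it CD68, a lysosomal gene that was higher with scramble siRNA than with scramble shRNA (0.22 on the log2 scale, limma adjusted p = 0.0296). HBB of that list had means of 0.997 to 2.24 FPKM, while PTPRC and CD3E had none above 0.0224 FPKM. The part of these markers in the collagen differences was not tested. In bulk libraries, fewer cells that express a gene and less of its RNA per cell cannot be told apart.

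By group mean, 18 of the 44 collagens reached 1 FPKM in some group and are called expressed here, 7 lay between 0.1 and 1 FPKM and are called low, and 19 stayed below 0.1 FPKM in all 4 groups and are called silent. The silent share was 43.2% of collagens and 37.2% of all symbols, and the expressed share 40.9% and 50.4%. Fibrillar genes had the largest silent share: 3 of 11 were expressed, 2 were low and 6 were silent. Of the 6 type IV genes, 3 were expressed, 2 low and 1 silent. The other 27 divided into 12 expressed, 3 low and 12 silent. Just inside the expressed range was COL15A1, with a highest group mean of 1.59 FPKM, and just below it COL8A2 with 0.774 FPKM.

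In summed group means, the collagen mRNA of scramble shRNA cells came to 1108 FPKM, that of EZH2 shRNA cells to 975.5 FPKM, that of scramble siRNA cells to 368 FPKM and that of ZRANB1 siRNA cells to 622 FPKM. Fibrillar collagens made up 6.57% of this total with scramble shRNA, 8.23% with EZH2 shRNA, 4.715% with scramble siRNA and 7.80% with ZRANB1 siRNA. Type IV collagens made up 8.71%, 11.5%, 12.96% and 13.3% in the same order. Other types held the rest, from 78.9% to 84.7%, most of it in COL7A1, COL6A1 and COL13A1. With scramble siRNA, however, COL7A1 held only 0.91% of the total. In every group fibrillar chains were the smallest of the 3 classes in mRNA and type IV the next. COL5A1, COL4A2 and COL13A1 had the highest mean of their class over all libraries. Without these 3 genes that order turned with scramble shRNA, where fibrillar genes held 4.11% and type IV genes 3.54% of the remaining total. The sum with ZRANB1 siRNA was 2.79 times that with scramble siRNA for fibrillar genes, 1.73 times for type IV genes and 1.62 times for other types, the last being 1.33 times without COL7A1. With types VII, XV and XVIII counted as basement membrane, that class held 39.2%, 40.6%, 23.3% and 33.6% of the total in the order above.

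**Figure D1:**
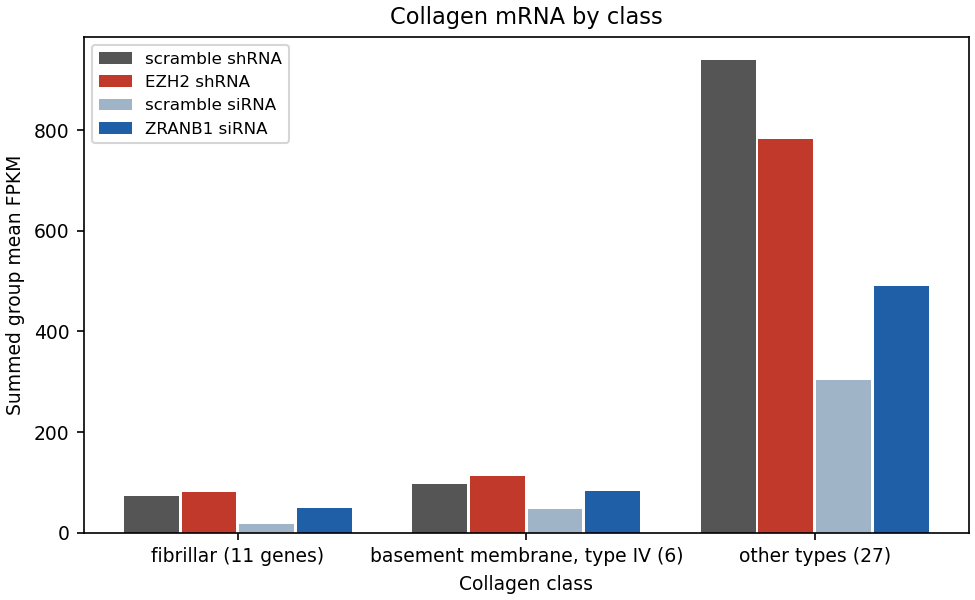
Summed group mean FPKM (linear axis from 0) of the fibrillar, type IV and other collagens, with a bar for each of the 4 groups and no error bar because the bars are sums of means. Other types hold 78.9% to 84.7% of collagen mRNA in each group, and scramble siRNA has the lowest bar in each class.

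Among the 18 tested collagens, ZRANB1 siRNA was accompanied by higher mRNA in 13 and lower mRNA in 0, with a median log2 fold change of 0.62 against -0.017 over all genes tested. Of all genes tested, 16.6% were called in this comparison, 10.1% higher and 6.5% lower. With EZH2 shRNA, 3 collagens rose (COL4A5, COL8A1 and COL12A1) and 1 fell (COL6A1), with a median of -0.079 against -0.014 over all genes, where 6.41% were called, 3.39% higher and 3.03% lower. That count of 4 was 1 when only the 6 libraries of both shRNA groups were fitted, and 2 to 4 with 1 value left out. Scramble siRNA cells had less collagen mRNA than scramble shRNA cells in 14 of 18 genes and more in 0, with a median of -1.005. There the background was large, with 50.6% of all genes called and 25.1% called lower. These scramble groups differ in delivery and in everything else that went with it, which cannot be told apart. The scramble shRNA libraries serve in both the EZH2 and the scramble comparison, and the scramble siRNA libraries in both the ZRANB1 and the scramble comparison, so the pairs of comparisons are not independent. Of the 18, 4 (COL6A3, COL15A1, COL16A1 and COL17A1) had a group mean below 1 FPKM with scramble siRNA and passed the filter through other groups. Of these 4, COL15A1 (0.986 FPKM) and COL16A1 (0.978 FPKM) were below 1 FPKM with ZRANB1 siRNA too. With all 4 left out, 9 of 14 rose with ZRANB1 siRNA and 10 of 14 were lower with scramble siRNA than with scramble shRNA. The 4 calls with EZH2 shRNA were unaffected.

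**Figure D2:**
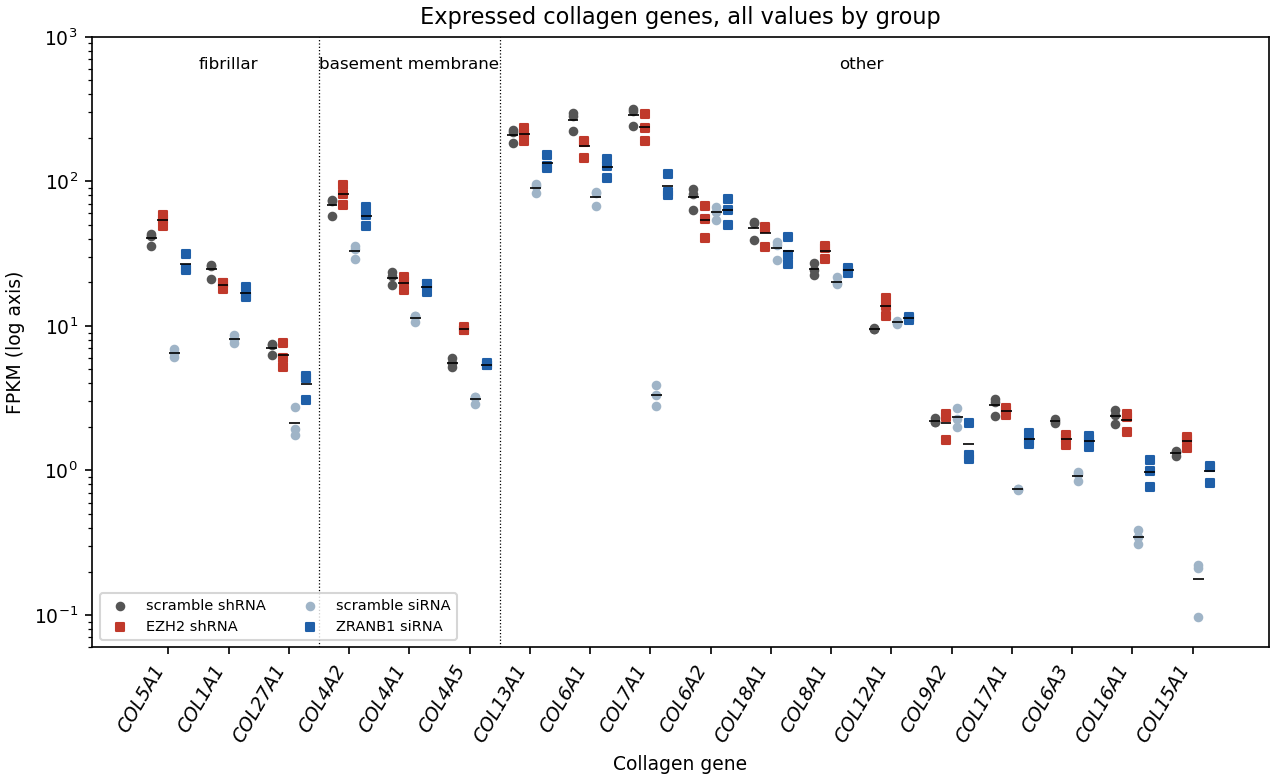
FPKM (log axis) of the 18 expressed collagens in all 12 libraries, arranged as fibrillar, type IV and other, where a point is a library and a black bar a group mean. The scramble siRNA values of COL7A1 lie between 2.80 and 3.90 FPKM, while its other 9 values lie between 80.9 and 318 FPKM.

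The upstream bases of COL7A1, COL5A1, COL13A1 and COL4A5 are printed because these genes had the largest difference with ZRANB1 siRNA, the largest fibrillar difference, the highest level of a membrane collagen and the most stable difference with EZH2 shRNA. Each run starts 250 bases before the gene's start, and bases within an annotated exon were left out, which shortened those of COL5A1 to 221 bases and COL13A1 to 211 bases. They are RefSeq sequences of build GRCh38.p14, given 5′ to 3′ on the strand of the gene, and were matched by symbol, not read from the libraries. Capitals mark matches to any of 5 motifs on either strand, and overlapping matches were each counted. The GC box was searched as GGGCGG. The CCAAT box, whose letters are its name, is a common promoter element. For the TATA box the letters searched were TATAAA. The site of the transcription factor AP-1 was searched as TGANTCA, with any base at N, and that of NF-kB as GGG, then any 2 bases, then TTTCC, a narrower pattern than its full consensus. COL7A1 on the minus strand lies at chr3:48595330-48595579, COL5A1 on the plus strand at chr9:134641553-134641773, COL13A1 on the plus strand at chr10:69801656-69801866 and COL4A5 on the plus strand at chrX:108439588-108439837.
COL7A1: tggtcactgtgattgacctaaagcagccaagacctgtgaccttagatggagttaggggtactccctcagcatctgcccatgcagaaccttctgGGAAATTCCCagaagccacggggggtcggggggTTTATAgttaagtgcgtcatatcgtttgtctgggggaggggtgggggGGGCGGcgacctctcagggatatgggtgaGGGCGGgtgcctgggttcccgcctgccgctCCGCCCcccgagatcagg
COL5A1: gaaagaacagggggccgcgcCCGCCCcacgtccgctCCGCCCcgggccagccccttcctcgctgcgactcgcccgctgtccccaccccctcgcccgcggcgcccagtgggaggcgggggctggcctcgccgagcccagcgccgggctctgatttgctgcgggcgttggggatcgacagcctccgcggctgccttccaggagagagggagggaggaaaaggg
COL13A1: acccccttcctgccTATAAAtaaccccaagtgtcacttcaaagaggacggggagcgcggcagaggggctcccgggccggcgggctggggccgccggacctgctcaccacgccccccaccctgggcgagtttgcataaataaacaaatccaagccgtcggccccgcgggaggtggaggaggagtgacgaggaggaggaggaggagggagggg
COL4A5: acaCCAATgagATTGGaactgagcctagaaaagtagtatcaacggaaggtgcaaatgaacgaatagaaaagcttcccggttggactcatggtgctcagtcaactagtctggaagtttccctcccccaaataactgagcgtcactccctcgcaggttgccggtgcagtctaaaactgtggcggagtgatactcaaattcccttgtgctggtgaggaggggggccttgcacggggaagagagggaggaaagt

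The COL7A1 window held 3 GC boxes, 1 TATA box and 1 NF-kB match. COL5A1 held 2 GC boxes, COL13A1 held 1 TATA box, and COL4A5 held 2 CCAAT boxes. Across the 32 collagens with a RefSeq promoter, 18 had a GC box, 9 a CCAAT box, 5 a TATA box, 2 an NF-kB match (COL7A1 and COL15A1) and 0 an AP-1 match within 250 bases upstream. Over all 27305 promoters the shares were 42.3%, 33.0%, 11.1%, 1.73% and 6.60%. A GC box stood in 11 of 15 expressed collagens and in 7 of 17 low or silent ones, and a TATA box in 4 of 15 and 1 of 17. A match is only a string of letters, not a bound site.

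COL7A1 encodes the single chain of collagen VII, which forms the anchoring fibrils that fasten the epidermal basement membrane to the tissue beneath. Its mRNA was 242, 306 and 318 FPKM with scramble shRNA, 189, 234 and 293 FPKM with EZH2 shRNA, 2.80, 3.315 and 3.90 FPKM with scramble siRNA, and 80.9, 84.1 and 113 FPKM with ZRANB1 siRNA. The siRNA groups did not overlap, whereas the shRNA groups did. COL7A1 was the most abundant collagen mRNA in the scramble shRNA cells, with 26.1% of the total, and made up 0.907% with scramble siRNA. ZRANB1 siRNA cells had 27.7 times the mean of their scramble control (log2 fold change 4.42 ± 0.18 SE, limma adjusted p = 1.84e-08). With EZH2 shRNA the log2 fold change was -0.29 and was not called (limma adjusted p = 0.391). The scramble shRNA mean was 86.5 times the scramble siRNA mean (log2 fold change of siRNA over shRNA -6.06, limma adjusted p = 4.53e-10).

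The expressed fibrillar genes were COL5A1, COL1A1 and COL27A1. COL5A1, the main chain of the minor fibrillar collagen V that helps to start and limit collagen I fibrils, had 35.9, 41.6 and 43.5 FPKM with scramble shRNA and 49.0, 54.5 and 58.5 FPKM with EZH2 shRNA. It had 6.07, 6.48 and 6.91 FPKM with scramble siRNA and 24.3, 24.9 and 31.4 FPKM with ZRANB1 siRNA. Neither pair of groups overlapped. COL5A1 rose 4.15 times with ZRANB1 siRNA (log2 fold change 1.89 ± 0.11 SE, limma adjusted p = 4.59e-07), while its difference with EZH2 shRNA, 0.41 on the log2 scale, did not pass (limma adjusted p = 0.0502) and passed under 2 other settings. COL1A1, the major chain of collagen I, had 21.2, 26.1 and 26.4 FPKM with scramble shRNA, 18.0, 19.9 and 20.0 FPKM with EZH2 shRNA, 7.62, 8.10 and 8.70 FPKM with scramble siRNA and 15.95, 16.2 and 18.7 FPKM with ZRANB1 siRNA. Here the EZH2 shRNA values lay below all 3 of their controls and the ZRANB1 siRNA values above theirs. Its rise with ZRANB1 siRNA was 2.08 times (log2 fold change 0.97, limma adjusted p = 4.21e-05), and the -0.33 with EZH2 shRNA did not pass (limma adjusted p = 0.0722). COL27A1, a fibrillar collagen of cartilage, was 3.97 ± 0.802 FPKM with ZRANB1 siRNA against 2.14 ± 0.527 with scramble siRNA (SD, n = 3; log2 fold change 0.66, limma adjusted p = 0.0151), a call lost with no filter and in 4 of the leave-one-out fits. All 3 fibrillar genes were lower with scramble siRNA than with scramble shRNA, by log2 fold changes of -2.46, -1.48 and -1.37.

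Of the type IV genes, COL4A1 and COL4A2 encode the chains of the common basement membrane network. COL4A2 had 57.7, 73.5 and 74.5 FPKM with scramble shRNA, 69.0, 81.9 and 94.8 FPKM with EZH2 shRNA, 29.1, 34.1 and 35.6 FPKM with scramble siRNA and 49.2, 58.5 and 66.2 FPKM with ZRANB1 siRNA. COL4A1 had group means of 21.5, 19.9, 11.3 and 18.7 FPKM in the same order. Both rose with ZRANB1 siRNA, COL4A2 by a log2 fold change of 0.79 (limma adjusted p = 0.00350) and COL4A1 by 0.68 (limma adjusted p = 0.000591), and neither passed with EZH2 shRNA. The genes share a start region, with 126 bases between their starts on opposite strands of chromosome 13 in GRCh38.p14. Their ratio of COL4A2 to COL4A1 was 3.18, 4.11, 2.91 and 3.10 in the 4 groups, and because the strand setting is not given, reads of COL4A2 and its antisense gene COL4A2-AS1 (at most 0.516 FPKM) cannot be told apart.

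COL4A5, a chain of the more specialised type IV networks of kidney and other epithelia, was the 1 collagen called with EZH2 shRNA in every alternative fit. Where an absolute log2 fold change of 1 was also required, COL4A5 was not called. It had 5.23, 5.51 and 5.95 FPKM with scramble shRNA and 9.34, 9.39 and 9.86 FPKM with EZH2 shRNA, 1.71 times the control (log2 fold change 0.68 ± 0.069 SE, limma adjusted p = 0.000262). With scramble siRNA it had 2.90, 3.21 and 3.23 FPKM and with ZRANB1 siRNA 5.32, 5.35 and 5.54 FPKM, 1.74 times the control (log2 fold change 0.64, limma adjusted p = 7.23e-05). Neither the EZH2 shRNA values nor the ZRANB1 siRNA values overlapped with those of their control. The test of the difference between its responses gave -0.043 on the log2 scale, with a 95% interval from -0.26 to 0.17 and a limma adjusted p of 0.843. COL4A6, which starts 379 bases away on the opposite strand of chromosome X, had means of 0.361, 0.749, 0.106 and 0.358 FPKM in the 4 groups. Fitted with no filter, it was higher with EZH2 shRNA (limma adjusted p = 0.0254) and with ZRANB1 siRNA (limma adjusted p = 0.0326). COL4A4, of the type IV network of the kidney filter, went the other way with EZH2 shRNA, from 0.389 ± 0.00474 to 0.173 ± 0.0607 FPKM (SD, n = 3; limma adjusted p = 0.00626 with no filter). Its neighbour COL4A3, with 418 bases between their starts, was silent in all groups.

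Collagen VI, which forms beaded filaments around cells, contributed from 23.6% to 38.1% of collagen mRNA. COL6A1 had 221, 283 and 298 FPKM with scramble shRNA, 146, 187 and 190.2 FPKM with EZH2 shRNA, 67.9, 83.2 and 84.0 FPKM with scramble siRNA and 105, 127 and 143 FPKM with ZRANB1 siRNA. It was the single collagen called in opposite directions with EZH2 shRNA and with ZRANB1 siRNA. With EZH2 shRNA it fell to 65.2% of control (log2 fold change -0.61 ± 0.15 SE, limma adjusted p = 0.0367), and with ZRANB1 siRNA it rose 1.59 times (log2 fold change 0.66, limma adjusted p = 0.0123). The first call was lost in 7 other fits and the second in 2, all within the same direction. COL6A2, which pairs with COL6A1 in every collagen VI molecule, had means of 77.9, 54.3, 60.9 and 62.9 FPKM and was called in none of the comparisons. COL6A3, the long chain, had 2.198, 1.65, 0.921 and 1.61 FPKM, higher with ZRANB1 siRNA (log2 fold change 0.44, limma adjusted p = 0.00570; 0.74 with a pseudocount of 0.1) and not called with EZH2 shRNA (-0.27, limma adjusted p = 0.1001).

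The membrane collagen COL13A1, found at cell contacts and the neuromuscular junction, was among the 3 highest collagens in each group. It had 185, 219 and 226 FPKM with scramble shRNA, 189, 216 and 234 FPKM with EZH2 shRNA, 83.2, 92.7 and 95.8 FPKM with scramble siRNA and 124, 128 and 151 FPKM with ZRANB1 siRNA. The shRNA groups overlapped and the siRNA groups did not. It rose with ZRANB1 siRNA by 0.56 on the log2 scale (limma adjusted p = 0.00487), and its log2 fold change with EZH2 shRNA was 0.023 (limma adjusted p = 0.944). COL17A1, the hemidesmosome collagen of basal epithelial cells, was 2.82, 2.58, 0.741 and 1.64 FPKM in the 4 groups and rose 2.22 times with ZRANB1 siRNA (log2 fold change 0.60, limma adjusted p = 0.00152; 1.05 with a pseudocount of 0.1).

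The multiplexins COL15A1 and COL18A1 lie in basement membrane zones, and the endostatin fragment is cut from the latter. COL15A1 was 1.32, 1.59, 0.177 and 0.986 FPKM, 5.57 times higher with ZRANB1 siRNA than with its control as a ratio of means. On the log2(FPKM + 1) scale, which understates the change of low genes, that difference was 0.75 (limma adjusted p = 0.000472), and with a pseudocount of 0.1 it was 1.997. COL18A1 was 47.7, 43.9, 34.4 and 32.9 FPKM and was called in none of the comparisons; reads of its antisense genes, at most 0.152 FPKM, cannot be told apart from its own.

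Of the collagens that decorate fibrils, COL12A1 rose with EZH2 shRNA from 9.51, 9.57 and 9.62 FPKM to 11.6, 13.8 and 15.6 FPKM (log2 fold change 0.47, limma adjusted p = 0.0104). Among the alternative fits with no limit on fold change, this call was lost only where the shRNA groups were fitted alone (limma adjusted p = 0.126). With scramble siRNA it was 10.6 ± 0.285 FPKM and with ZRANB1 siRNA 11.3 ± 0.247 FPKM (SD, n = 3), a difference that did not pass (limma adjusted p = 0.535). COL16A1 had 2.37, 2.22, 0.349 and 0.978 FPKM in the 4 groups and rose with ZRANB1 siRNA (log2 fold change 0.55, limma adjusted p = 0.00837; 1.25 with a pseudocount of 0.1). COL9A2, of cartilage fibrils, had 2.2005, 2.14, 2.33 and 1.54 FPKM and was not called in any comparison. The short-chain collagen COL8A1, a component of vessel walls and of the corneal endothelium's membrane, had 22.3, 24.4 and 27.2 FPKM with scramble shRNA and 28.9, 34.5 and 35.5 FPKM with EZH2 shRNA. Its rise was 0.40 on the log2 scale (limma adjusted p = 0.0281), and that call was lost in 6 other fits. With ZRANB1 siRNA its difference of 0.25 did not pass (limma adjusted p = 0.0994).

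**Figure D3:**
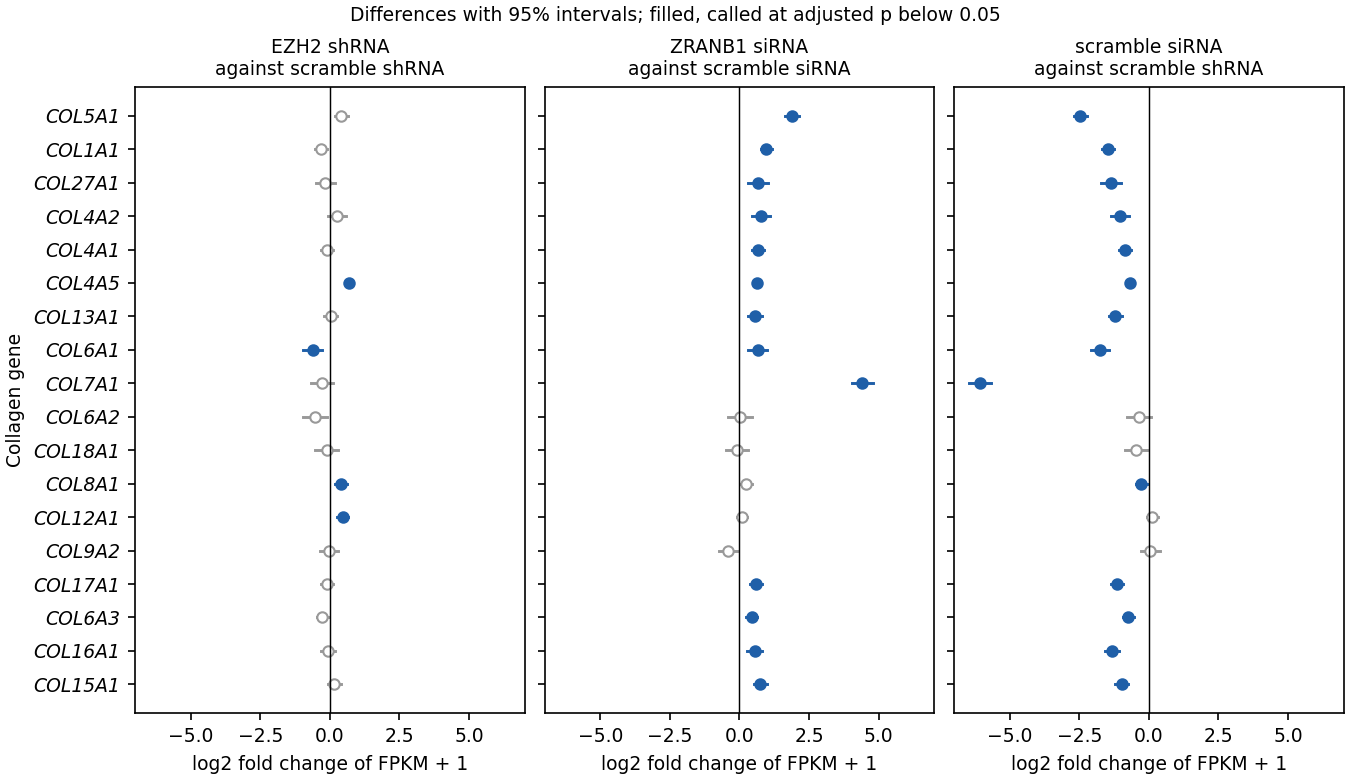
Log2 fold changes of FPKM + 1 for the 18 tested collagens in the 3 comparisons, with 95% intervals as lines and filled points for genes with a limma adjusted p below 0.05. With ZRANB1 siRNA 13 points are filled and all lie above 0, and with scramble siRNA against scramble shRNA 14 are filled and all lie below 0.

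Between the scramble controls, values of the collagens spread over a wide range. Beside COL7A1 and COL5A1, differences on the log2(FPKM + 1) scale of scramble siRNA over scramble shRNA included COL6A1 (-1.75), COL1A1 (-1.48), COL27A1 (-1.37), COL16A1 (-1.32), COL13A1 (-1.20), COL17A1 (-1.13) and COL15A1 (-0.98), each with a limma adjusted p of at most 2.79e-05. Their order depends on the pseudocount. With 0.1 in place of 1, COL16A1 was at -2.46, COL15A1 at -2.39, COL17A1 at -1.79 and COL6A3 at -1.17, against -2.62 for COL5A1 and -1.76 for COL6A1. COL8A1 passed with the smallest difference, -0.27 (limma adjusted p = 0.0330). COL6A2, COL9A2, COL12A1 and COL18A1 were not called. Scramble siRNA had the lowest of the 4 group means in 14 of the 18 collagens, or 77.8%, against 36.3% of all genes tested. Those 14 include COL6A3, COL15A1, COL16A1 and COL17A1, which were below 1 FPKM with scramble siRNA and passed the filter through other groups. Of the 18, 16 had groups that did not overlap, against 59.9% of all genes. In the ZRANB1 comparison that number was 15, against 36.4%, and in the EZH2 comparison 8, against 22.1%. COL6A3, COL15A1, COL16A1 and COL17A1 are counted in both the 16 and the 15. A two-sided exact permutation test of 3 values against 3 cannot give a p below 0.1. It gave 0.1 for each collagen whose groups did not overlap.

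The ZRANB1 siRNA and EZH2 shRNA effects, which share no library, were compared directly, as the first minus the second. They differed in 11 of 18 collagens, all in the direction of a higher value for ZRANB1 siRNA, against 10.5% of all genes called, 6.91% in that direction and 3.58% in the other. Without the 4 collagens that passed the filter through other groups, they differed in 7 of 14. The difference was 4.71 on the log2 scale for COL7A1 (limma adjusted p = 4.80e-07), 1.48 for COL5A1 (limma adjusted p = 9.97e-05), 1.30 for COL1A1 (limma adjusted p = 9.97e-05) and 1.27 for COL6A1 (limma adjusted p = 0.00292). All 3 expressed fibrillar genes were among the 11, and of the 3 expressed type IV genes COL4A1. The EZH2 shRNA reduced EZH2 mRNA, whereas ZRANB1 mRNA was not shown to be lower in the libraries labelled ZRANB1 siRNA. The EZH2 shRNA and ZRANB1 siRNA groups also differed in delivery and in their control, and the part of these in the difference cannot be told apart.

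**Figure D4:**
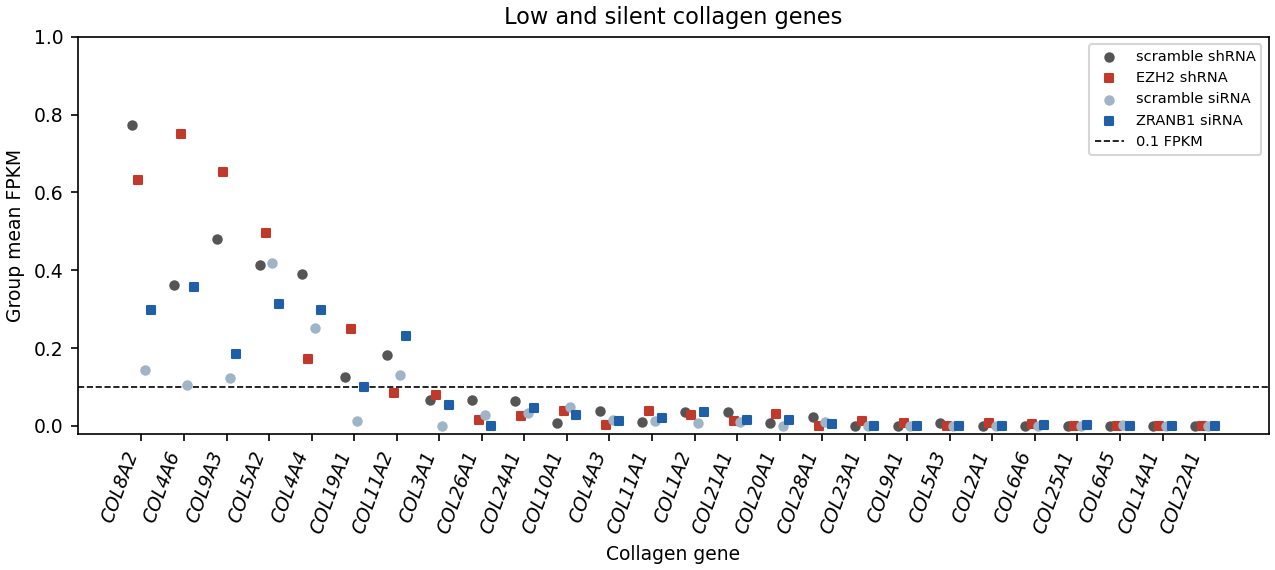
Group mean FPKM (linear axis) of the 7 low and 19 silent collagens, 1 point per group, with a dashed line at 0.1 FPKM. The low genes range from COL8A2 at 0.774 FPKM to COL11A2 at 0.230 FPKM in their highest group, and the highest silent gene, COL3A1, reaches 0.0786 FPKM.

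The silent genes were COL1A2, COL2A1, COL3A1, COL5A3, COL11A1 and COL24A1 among the fibrillar collagens and COL4A3 in type IV. The other 12 were COL6A5, COL6A6, COL9A1, COL10A1, COL14A1, COL20A1, COL21A1, COL22A1, COL23A1, COL25A1, COL26A1 and COL28A1. Of these, COL14A1 and COL22A1 were listed at 0 in all 12 libraries. COL2A1, COL10A1 and COL9A1 are among the collagens of cartilage, and COL3A1 is the fibroblast and vessel-wall partner of collagen I. COL3A1 was 0.0160, 0.0685 and 0.115 FPKM with scramble shRNA and listed at 0 in all 3 libraries of scramble siRNA. At a silence limit of 0.05 FPKM the count was 16, and at 0.5 FPKM it was 23.

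The low genes were COL8A2, COL4A6, COL9A3, COL5A2, COL4A4, COL19A1 and COL11A2. COL8A2 was 0.774 ± 0.141 FPKM with scramble shRNA and 0.142 ± 0.0305 FPKM with scramble siRNA (SD, n = 3; limma adjusted p = 4.87e-05 with no filter). COL19A1 went from 0.127 to 0.248 FPKM with EZH2 shRNA (limma adjusted p = 0.0429 with no filter), and COL9A3 from 0.4795 with scramble shRNA to 0.124 FPKM with scramble siRNA (limma adjusted p = 0.0281 with no filter). COL19A1, COL4A4 and COL4A6 were also lower with scramble siRNA than with scramble shRNA (limma adjusted p = 0.00623, 0.00980 and 0.0106 with no filter). COL5A2 and COL11A2 passed in no comparison with no filter.

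Collagens are built from set partners, and several partners were expressed at very unequal levels. Collagen I usually holds 2 chains from COL1A1 and 1 from COL1A2, yet COL1A2 had no group mean above 0.0367 FPKM, so that the mean of COL1A1 was 463 to 1169 times that of COL1A2. COL5A1 stood at 97.4 times COL5A2 with scramble shRNA, 109 times with EZH2 shRNA, 15.5 times with scramble siRNA and 85.7 times with ZRANB1 siRNA. COL5A2 itself was 0.414, 0.497, 0.418 and 0.314 FPKM. COL6A1 stood at 3.43, 3.21, 1.29 and 1.99 times COL6A2 and at 77.5 to 122 times COL6A3. Against COL4A6, COL4A5 was 12.7 to 29.4 times higher, and COL8A1 was 31.9 to 142 times COL8A2. Ratios against the silent or low partner rest on values near 0 and are given as descriptions of mRNA, not of protein.

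The other genes of the collagen pathway were taken as 5 lists with 64 genes in the table, of which 42 were tested. With EZH2 shRNA 3 were called higher and 4 lower, with ZRANB1 siRNA 22 higher and 3 lower, and between the scramble groups 6 higher and 24 lower with siRNA. Over all genes tested, 6.41%, 16.6% and 50.6% were called in these comparisons, the last with 25.1% lower. The lists' medians were 0.011, 0.38 and -0.61 on the log2 scale. ADAMTS3, CTSK, LOXL4 and MMP9 had a group mean below 1 FPKM and passed the filter through other groups, and without them the counts over 38 genes were 2 higher and 4 lower, 20 and 3, and 6 and 21. The 4 tested receptors were all higher with ZRANB1 siRNA, against 10.1% of all genes, with a median of 0.57: ITGB1 (275 to 404 FPKM), the integrin subunit shared by all collagen-binding integrins, ITGA2 (26.35 to 39.9 FPKM), its collagen-binding partner, DDR1 and MRC2. ITGA2 was also the receptor that rose with EZH2 shRNA, from 26.6 to 44.55 FPKM (limma adjusted p = 0.00789).

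Among the 5 tested collagen-degrading proteases, 4 rose with ZRANB1 siRNA, against 10.1% of all genes, and with EZH2 shRNA 2 rose and 1 fell, against 3.39% and 3.03%. Without MMP9 and CTSK, 3 of 3 rose with ZRANB1 siRNA, and 1 rose and 1 fell with EZH2 shRNA. MMP1, the interstitial collagenase, went from 27.01 ± 1.64 to 329 ± 16.04 FPKM with EZH2 shRNA (SD, n = 3; limma adjusted p = 7.03e-10) and from 4.175 ± 0.347 to 175 ± 13.5 FPKM with ZRANB1 siRNA (limma adjusted p = 1.03e-11). MMP2, a gelatinase, fell with EZH2 shRNA from 11.55 to 3.62 FPKM (log2 fold change -1.44) and rose with ZRANB1 siRNA from 1.04 to 2.73 FPKM (0.87). MMP14, which activates MMP2 at the cell surface, rose with ZRANB1 siRNA from 87.95 to 180.5 FPKM (limma adjusted p = 8.15e-05). MMP9 was 1.85 FPKM with scramble shRNA and 3.14 FPKM with EZH2 shRNA, and it was listed at 0 in the scramble siRNA libraries.

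Of 20 tested modifying enzymes and chaperones, 7 rose and 2 fell with ZRANB1 siRNA, with a median of 0.17, against 10.1% and 6.5% of all genes. With EZH2 shRNA 1 of the 20 fell, a share of 5% that is near the 6.41% of all genes called. P4HA1, a catalytic subunit of the prolyl hydroxylase that stabilises the helix, was 91.7, 87.0, 27.4 and 51.3 FPKM in the 4 groups. PLOD1, a lysyl hydroxylase, was 73.6, 64.9, 22.8 and 42.0 FPKM. P4HA2, the catalytic subunit of a related hydroxylase, was 36.55, 42.9, 14.9 and 27.6 FPKM. These 3 rose with ZRANB1 siRNA (limma adjusted p = 0.000140, 0.000363 and 8.14e-05). The collagen chaperone SERPINH1 was the gene that fell with EZH2 shRNA, from 177 to 117 FPKM (log2 fold change -0.58, limma adjusted p = 0.0140). COLGALT2, a collagen galactosyltransferase, fell with ZRANB1 siRNA from 5.35 to 2.95 FPKM (limma adjusted p = 0.000472), and CRTAP, named after its values were seen, from 59.2 to 49.9 FPKM (limma adjusted p = 0.0284).

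Among 8 tested genes of procollagen processing and cross-linking, ZRANB1 siRNA went with 3 higher and 1 lower, against 16.6% of all genes called. Without LOXL4 and ADAMTS3, which passed the filter through other groups, 2 of 6 were higher and 1 lower. With EZH2 shRNA limma called 0 of the 8, against 6.41% of all genes called. At an unadjusted limma p below 0.05, a looser limit for which no share over all genes is given, there were 2 of the 8. LOXL4, a lysyl oxidase, rose from 0.937 to 3.42 FPKM (limma adjusted p = 7.95e-05). LOXL2 and the procollagen C-proteinase BMP1 rose too, whereas LOXL1 fell from 12.5 to 8.11 FPKM (limma adjusted p = 0.0292). Of the 5 tested fibril and basement membrane partners, 4 rose with ZRANB1 siRNA, against 10.1% of all genes, and 2 fell with EZH2 shRNA, against 3.03%. THBS1, a matricellular glycoprotein, rose with ZRANB1 siRNA from 42.8 to 93.4 FPKM (limma adjusted p = 5.00e-07), and so did FN1, SPARC and the laminin chain LAMC1. The 2 that fell with EZH2 shRNA were FN1, from 98.5 to 82.8 FPKM, and SPARC, from 116 to 94.6 FPKM. Biglycan, BGN, was listed at 0 in all 12 libraries.

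**Figure D5:**
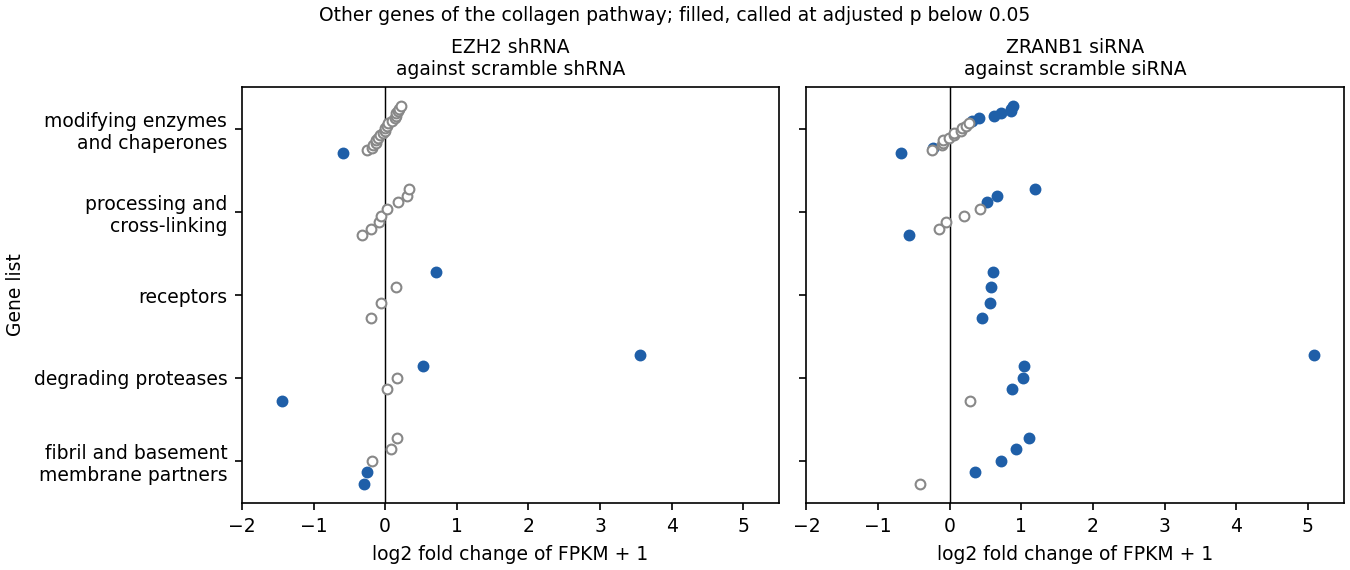
Log2 fold changes of FPKM + 1 for the 42 tested genes of the 5 other collagen pathway lists, 1 point per gene, filled where the limma adjusted p is below 0.05, with EZH2 shRNA on the left and ZRANB1 siRNA on the right. Filled points number 7 on the left and 25 on the right, and MMP1 is the point furthest to the right in both.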

How the data were processed

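RNA was measured by sequencing in 12 libraries of LM2 cells, 3 in each of 4 groups taken from the labels. FPKM values for 26006 rows were deposited in a single file. The submitters' processing notes name hg19, alignment by TopHat2 2.1.1 and the programs SAMtools, Cuffdiff 2.2.1 and Cufflinks 2.2.1; what options, annotation, strand setting and scaling they had is not given in the sources used here. Since FPKM is relative to the library total, a few strongly expressed genes can lower all others, and depth is unknown. Within a group, each row's 3 values were sorted as text strings, which means that no column follows a library. Group means, SDs and single-gene tests do not depend on that order.

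The highest row of a repeated symbol was kept. limma 3.58.1 (R 4.3.3) was fitted on log2(FPKM + 1) for 11929 genes averaging 1 FPKM or more, with all 4 groups in 1 fit, 8 residual degrees of freedom, empirical Bayes with trend and Benjamini-Hochberg adjustment over all genes, after a test on simulated data. Python 3.11.15, scipy 1.17.1 and pandas 2.3.3 gave the exact permutation tests and summaries. Alternatives changed the pseudocount to 0.1, the filter to none or 5 FPKM, the groups fitted, the variance trend, the scaling, the choice of row, the silence limit and the class borders, required an absolute log2 fold change of 1, or left out 1 value after a random order within each group and row. Named genes were all expressed collagens, the low and silent ones with their range, the targeted genes, of each other list up to 4 called genes a comparison by adjusted p, and any at 0; CRTAP and single marker genes were named outside this rule. ITGA1 was not analysed here. Members and lists were chosen with earlier results of these data known. Promoters were RefSeq's (GRCh38.p14), found for 32 of 44 members. No coordinate is on hg19.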

Additional observations from a re-analysis of the deposited data

Results flagged for a closer look

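For 11 of the 18 tested collagens, limma's test of the ZRANB1 siRNA effect minus the EZH2 shRNA effect gave an adjusted p below 0.05. All 11 differences were above 0. Of all genes tested, 10.5% were called, 6.91% in that direction. COL6A3, COL15A1, COL16A1 and COL17A1 passed the filter through groups other than scramble siRNA, and without them 7 of 14 were called. COL15A1 and COL16A1 were below 1 FPKM with ZRANB1 siRNA too. On the log2(FPKM + 1) scale the difference was 4.71 for COL7A1, 1.48 for COL5A1, 1.30 for COL1A1 and 1.27 for COL6A1. It was 0.82 for COL27A1, 0.78 for COL4A1, 0.71 for COL6A3 and 0.69 for COL17A1. The remaining differences were 0.62 for COL16A1, 0.60 for COL15A1 and 0.54 for COL13A1, the last with an adjusted p of 0.0497. COL6A1 was called in opposite directions, with log2 fold changes of 0.66 for ZRANB1 siRNA and -0.61 for EZH2 shRNA. With a pseudocount of 0.1 in place of 1 the differences of low genes were larger, at 1.75 for COL15A1, 1.35 for COL16A1, 1.17 for COL17A1 and 1.14 for COL6A3, against 1.61 for COL5A1. In 8 of the 11 genes the call held in every alternative fit that tested the gene with no limit on fold change. In COL13A1, COL16A1 and COL27A1 it did not. COL6A3, COL15A1, COL16A1, COL17A1 and COL27A1 were not tested with a filter at 5 FPKM.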

How the results depend on the processing

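No paired analysis was possible because the values of a group were sorted in each row, so a column follows no library and carries no usable replicate number. The values left out in the leave-one-out fits are likewise not those of 1 library. Some calls held in every alternative fit that tested the gene with no limit on fold change. These were 1 of 4 collagens with EZH2 shRNA (COL4A5) and 11 of 13 with ZRANB1 siRNA. Between the scramble groups they were 13 of 14, and for the difference of effects 8 of 11. COL6A1 and COL27A1 lost the call with ZRANB1 siRNA in some fits, and COL8A1 lost it between the scramble groups.

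With 1 value left out, collagens called numbered 2 to 4 with EZH2 shRNA, 11 to 13 with ZRANB1 siRNA, 13 to 15 between the scramble groups and 8 to 10 for the difference; genes of the other lists numbered 3 to 6, 20 to 22, 29 to 31 and 14 to 19, from 7, 25, 30 and 17. With the shRNA groups fitted alone, 1 collagen and 2 list genes were called with EZH2 shRNA. Where an absolute log2 fold change of 1 was also required, collagens called were 0, 2, 9 and 4, and list genes 2, 5, 17 and 7, in the order above. A filter at 5 FPKM left 12 collagens, of which 8 were called with ZRANB1 siRNA, 9 between the scramble groups and 5 for the difference, and it left 4 list genes called with EZH2 shRNA. Fewer collagens were tested at 5 FPKM, and COL13A1, which was tested, lost its call for the difference there (limma adjusted p = 0.0535). For the shRNA groups fitted alone the cause was not tested.

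Reversals were limited to differences that were not called. With 1 value left out, the log2 fold change with EZH2 shRNA ran from -0.11 to 0.088 for COL9A2, -0.067 to 0.11 for COL13A1, -0.13 to 0.020 for COL16A1 and -0.25 to 0.030 for COL18A1. With ZRANB1 siRNA it ran from -0.11 to 0.19 for COL6A2 and -0.24 to 0.058 for COL18A1, and between the scramble groups from -0.033 to 0.12 for COL9A2. The difference of effects for COL18A1 ran from -0.12 to 0.18, and it was -0.0052 with 1 scaling factor per group. For COL4A5 that difference became 0.011 with a pseudocount of 0.1.

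Type IV collagens with types VII, XV and XVIII held 39.2%, 40.6%, 23.3% and 33.6% of collagen mRNA with scramble shRNA, with EZH2 shRNA, with scramble siRNA and with ZRANB1 siRNA. Without COL5A1, COL4A2 and COL13A1, type IV held 3.54%, 4.85%, 6.21% and 6.15% of the remaining total. The fibrillar class then held 4.11% with scramble shRNA, 4.20% with EZH2 shRNA and 5.37% with ZRANB1 siRNA. Silent genes numbered 16 at 0.05 FPKM and 23 at 0.5 FPKM. Depth is unknown, so a value of 0 carries no limit of detection.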
